A study of Mus musculus with 8 samples.

Results

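Rpph1, Rmrp, Terc and Rn45s are genes of structured noncoding RNAs that work without being translated. They were followed in liver cells of mice that lacked Ifih1 and carried floxed or wild-type alleles of Adar. Rpph1 was listed with Rmrp, Terc, Rn7sk, Rny1, Rny3 and Rn45s as 7 structured noncoding RNAs. A gene was taken when it had a row of sense read counts in each of the 8 libraries. This held for 4 of the 7 among 25229 genes in all. Rn7sk, Rny1 and Rny3 were not analysed here. All 4 genes passed the filter on low counts, which left 14728 genes to test.

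The genes were selected on the difference between flox/flox and wt/wt livers, so that difference is given below as a description with no test. The wt/flox mice were set against the same wt/wt libraries and are treated likewise. The difference between flox/flox and wt/flox livers was not used in the choice and was tested, although it shares the flox/flox libraries.

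Rpph1 encodes the RNA subunit of nuclear RNase P, the ribozyme that trims the leader from the front of precursor tRNAs. Rmrp encodes the RNA of RNase MRP, a related particle that shares most of its proteins with RNase P and cuts the ribosomal RNA precursor. Terc encodes the template RNA of telomerase, and Rn45s is the ribosomal RNA precursor made by RNA polymerase I. Rpph1 and Rmrp are transcribed by RNA polymerase III, whereas mammalian Terc is transcribed by RNA polymerase II.

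All 8 mice were C57BL/6, Ifih1-/- and Alb-Cre+, so that every library came from animals without MDA5, a sensor of double-stranded RNA, and with a Cre recombinase driven in hepatocytes. Adar encodes ADAR1, which edits adenosines in double-stranded RNA. It was flox/flox in 3 mice, wt/flox in 2 and wt/wt in 3, although the submitters' design text gives 2 for flox/flox. Labelled ages were 11, 9 and 7 weeks for replicates 1, 2 and 3 of each group, and wt/flox had no mouse of 7 weeks. By label wt/flox mice were male, and the other groups held both sexes. After collagenase perfusion, slow spins and a Percoll gradient enriched live hepatocytes, and strand-specific libraries were made from RNA depleted of ribosomal RNA.

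Some facts of the libraries bear on every value below. The deposited files mark all 5 flox/flox and wt/flox libraries with the word batch2 and leave the wt/wt libraries unmarked, so that for any difference from wt/wt the genotype and the batch mark cannot be told apart. Sense reads in genes ranged from 75875711 to 132303735 per library. Reads that the sense count gave to no gene may include reads antisense to a gene. Of uniquely placed reads they made up 34.5% to 40.0% in flox/flox, 31.7% to 37.3% in wt/flox and 22.2% to 28.1% in wt/wt libraries. Alignments to several places, added to the same total, made up 3.92% to 4.32% in flox/flox, 4.89% to 4.98% in wt/flox and 8.97% to 10.9% in wt/wt libraries. In 2 flox/flox libraries the labelled sex went against the transcripts. Replicate 1 is labelled female and had 31 Xist reads with 21255 Y-linked reads, and replicate 2 is labelled male and had 246646 Xist reads with 0 Y-linked reads. Adar ranged from 35.9 to 49.4 CPM (counts scaled to library totals) in flox/flox, 22.0 and 31.8 CPM in wt/flox and 28.1 to 53.6 CPM in wt/wt livers. The labels do not say which part of Adar is floxed, so whole-gene reads are no check of the deletion. Ifih1 had 0 to 4 reads per library.

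The transcripts of Rpph1 and Rmrp are shown because the results turn on them. In the GENCODE M21 annotation of GRCm38, Rpph1 is a gene of a single exon on the minus strand at chr14:50807449-50807767, 319 bases long. Its first 300 bases are printed with capitals on a stretch of 21 bases that stands in tandem at positions 182 to 202 and 203 to 223. Rmrp is a single exon on the minus strand at chr4:43492788-43493058, 271 bases long. Its whole transcript is printed with capitals on the first 159 bases, which lie within the GENCODE gene body of Ccdc107 on the other strand. The GC content was 67.1% for Rpph1 and 64.2% for Rmrp.
Rpph1: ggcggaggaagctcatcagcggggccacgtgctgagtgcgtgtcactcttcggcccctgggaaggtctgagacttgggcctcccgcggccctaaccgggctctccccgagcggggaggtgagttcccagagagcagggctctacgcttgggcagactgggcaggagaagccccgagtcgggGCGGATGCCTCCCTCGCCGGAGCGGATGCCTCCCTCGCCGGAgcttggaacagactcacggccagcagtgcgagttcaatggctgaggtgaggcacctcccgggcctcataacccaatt
Rmrp: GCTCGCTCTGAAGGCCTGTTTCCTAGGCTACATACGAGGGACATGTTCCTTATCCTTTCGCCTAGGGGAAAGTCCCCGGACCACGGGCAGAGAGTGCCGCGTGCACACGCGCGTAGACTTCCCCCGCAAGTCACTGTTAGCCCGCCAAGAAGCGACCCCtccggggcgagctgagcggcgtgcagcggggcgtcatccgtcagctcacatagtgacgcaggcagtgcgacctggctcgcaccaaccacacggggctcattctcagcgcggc

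Both genes start close to the start of a protein-coding gene on the other strand. A RefSeq start window of that neighbour (250 bases before to 50 after its start, GRCm38.p6) therefore covers part of the stretch upstream of them. The window of Parp2, which encodes a poly(ADP-ribose) polymerase of DNA repair, is chr14:50807666-50807965 on the plus strand and holds the first 102 bases of Rpph1 in reverse. The window of Ccdc107, which encodes a coiled-coil protein, is chr4:43493115-43493414 on the plus strand and begins after a gap of 56 bases from the 5′ end of Rmrp. Capitals mark the octamer ATTTGCAT, searched on both strands, which reads as its reverse complement ATGCAAAT in the window of Ccdc107. Octamers are known as distal elements of many RNA polymerase III promoters of this kind.
Parp2 window: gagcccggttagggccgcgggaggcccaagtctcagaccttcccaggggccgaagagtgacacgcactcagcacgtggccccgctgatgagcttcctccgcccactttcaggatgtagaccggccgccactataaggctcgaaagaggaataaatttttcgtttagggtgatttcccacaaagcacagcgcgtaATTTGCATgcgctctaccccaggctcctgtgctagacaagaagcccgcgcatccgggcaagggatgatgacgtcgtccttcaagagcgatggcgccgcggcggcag
Ccdc107 window: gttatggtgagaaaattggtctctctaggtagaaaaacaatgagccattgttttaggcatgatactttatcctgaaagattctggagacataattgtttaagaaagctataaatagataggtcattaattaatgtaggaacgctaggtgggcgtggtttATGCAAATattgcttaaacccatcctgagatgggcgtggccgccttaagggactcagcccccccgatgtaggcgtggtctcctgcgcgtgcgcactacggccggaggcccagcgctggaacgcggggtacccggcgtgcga

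The octamer lay 93 bases upstream of the annotated start of Rpph1 and 216 bases upstream of that of Rmrp. It occurred in 570 of all 32851 such windows (1.74%). The letters TATAAA, found 164 bases upstream of Rmrp on the plus strand, occurred in 13.6% of windows. The letters CCAAT, found 71 bases upstream of Rmrp on the minus strand, which is that of Rmrp, occurred in 37.4%. Neither TATAAA nor CCAAT was found in the window of Parp2. The 56 bases next to the start of Rmrp lie outside the window of Ccdc107 and were not searched. These matches are descriptions of sequence, and no binding was measured.

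Rpph1 was low in both groups of mice with a floxed Adar allele, and Rmrp was low to a lesser degree. Rn45s was high in the same 5 libraries. Terc was lower than in wt/wt livers by 0.28 on the log2 scale in flox/flox and by 0.57 in wt/flox livers. Its gap was wider when levels were scaled to library totals alone. Between flox/flox and wt/flox livers no difference in any of the 4 RNAs passed the test.

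Rpph1 had 303.7, 342.6 and 503.4 CPM in flox/flox livers, 394.6 and 336.8 CPM in wt/flox livers, and 1804, 2405 and 2617 CPM in wt/wt livers, with the totals adjusted by trimmed mean of M-values (TMM) factors. Every library with a floxed allele was below every wt/wt library, while the flox/flox and wt/flox values overlapped. Of all tested genes 22.0% were lower without overlap in flox/flox against wt/wt livers, and 29.3% in wt/flox against wt/wt livers. Mean levels with their SD were 383.2 ± 106 CPM over 3 flox/flox, 365.7 ± 40.9 CPM over 2 wt/flox and 2275 ± 422 CPM over 3 wt/wt livers. Counts were high throughout, with 27352 to 66340 reads in flox/flox, 23716 and 33733 reads in wt/flox and 177745 to 286695 reads in wt/wt libraries. Ordered by sense reads, Rpph1 was gene number 217 to 432 in the libraries with a floxed allele and number 30 to 46 in wt/wt libraries. In bulk samples fewer cells of a type and less RNA per cell cannot be told apart.

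The fitted log2 fold change of Rpph1 was 0.07 in flox/flox against wt/flox livers (SE 0.26, 95% interval -0.53 to 0.66, adjusted p = 0.929 by edgeR's quasi-likelihood test). None of the 14728 genes was called in that contrast, that is 0% at an adjusted p under 0.05, while 1240 genes had an unadjusted p under 0.05, DESeq2 called 75 and limma-voom 0. Against wt/wt, Rpph1 had a log2 fold change of -2.57 (SE 0.24) in flox/flox livers, 5.94-fold lower. It had -2.64 (SE 0.29) in wt/flox livers, 6.22-fold lower. Both comparisons share their wt/wt libraries, and only the contrast of flox/flox with wt/flox lies within libraries of the same mark.

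**Figure D1:**
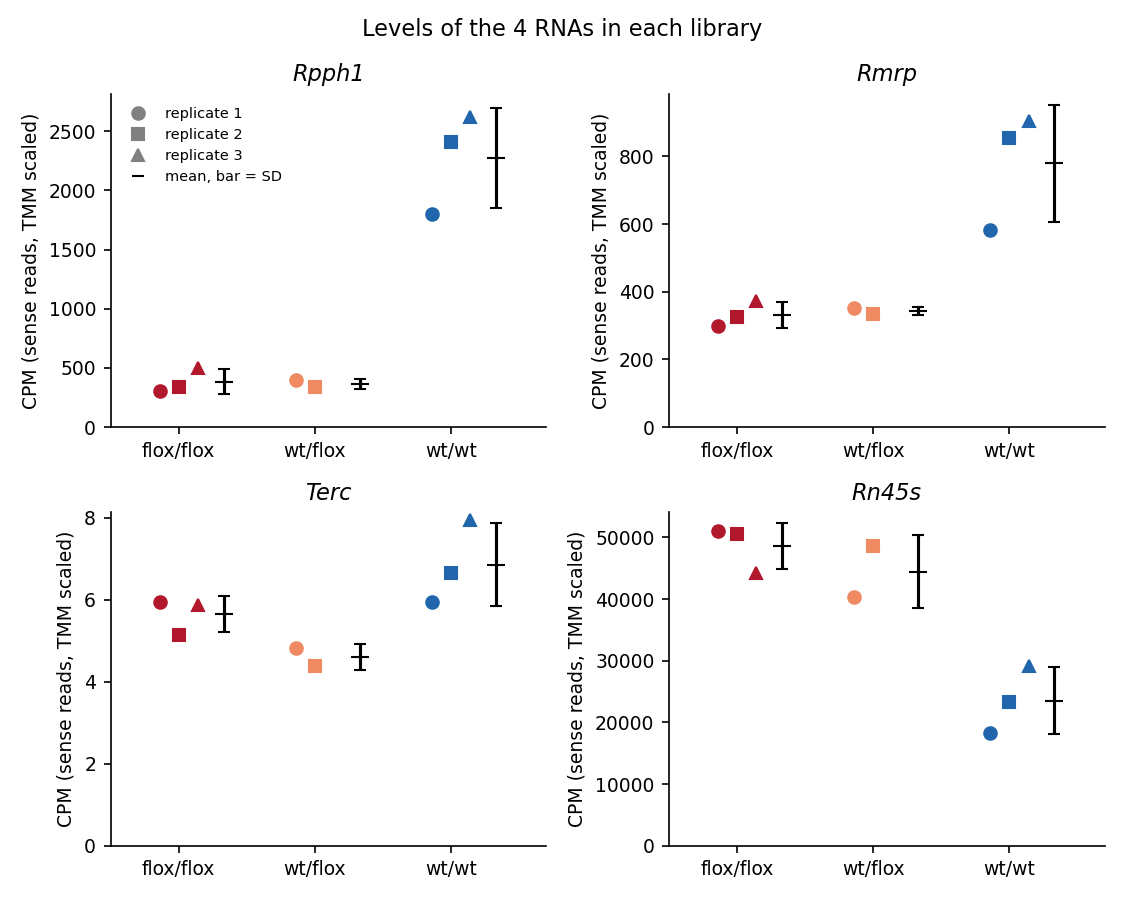
CPM of Rpph1, Rmrp, Terc and Rn45s (vertical axes from 0, TMM-scaled sense reads) in flox/flox, wt/flox and wt/wt libraries. Symbols are libraries and bars are the mean with its SD. The 5 libraries with a floxed allele lie at or under 503.4 CPM of Rpph1, against 1804 CPM or more in wt/wt.

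The plot of levels by library shows the same split for Rmrp. It had 297.6, 325.3 and 373.8 CPM in flox/flox livers, 351.8 and 333.6 CPM in wt/flox livers, and 582.7, 854.0 and 903.3 CPM in wt/wt livers. Here too all 5 libraries with a floxed allele lay below the 3 wt/wt libraries and overlapped with each other. Mean levels with their SD were 332.2 ± 38.6 CPM over 3 flox/flox, 342.7 ± 12.8 CPM over 2 wt/flox and 780.0 ± 173 CPM over 3 wt/wt livers. Between flox/flox and wt/flox livers the log2 fold change of Rmrp was -0.04 (SE 0.21, 95% interval -0.53 to 0.44, adjusted p = 0.943, edgeR). Against wt/wt it was -1.23 (SE 0.19) in flox/flox livers, 2.35-fold lower, and -1.19 (SE 0.22) in wt/flox livers, 2.28-fold lower.

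Terc was far less abundant, with 535, 576 and 773 reads in flox/flox, 413 and 308 in wt/flox and 587, 787 and 872 in wt/wt libraries. Its levels were 5.94, 5.15 and 5.87 CPM in flox/flox livers, 4.83 and 4.37 CPM in wt/flox livers, and 5.96, 6.65 and 7.96 CPM in wt/wt livers. The 3 groups did not overlap, although the highest flox/flox and the lowest wt/wt library almost met. The fitted log2 fold change of Terc in flox/flox against wt/flox livers was 0.30 (SE 0.17, 95% interval -0.10 to 0.69, adjusted p = 0.570, edgeR). Over all tested genes in that contrast 14.2% were higher without overlap, as Terc was, and 13.1% lower. Against wt/wt, Terc had a log2 fold change of -0.28 (SE 0.15) in flox/flox livers and -0.57 (SE 0.17) in wt/flox livers.

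Rn45s ran the other way. It had 51016, 50606 and 44249 CPM in flox/flox livers, 40277 and 48666 CPM in wt/flox livers, and 18210, 23304 and 29121 CPM in wt/wt livers. Each of the 5 libraries with a floxed allele was above each wt/wt library, and the flox/flox and wt/flox values overlapped. Rn45s ranked number 2 by sense reads in every library, with 4.33% to 4.67% of sense gene reads in flox/flox, 3.57% to 4.52% in wt/flox and 2.16% to 3.36% in wt/wt libraries. In flox/flox against wt/flox livers the log2 fold change was 0.13 (SE 0.26, 95% interval -0.47 to 0.72, adjusted p = 0.855, edgeR). Against wt/wt it was 1.05 (SE 0.23) in flox/flox livers, 2.07-fold higher, and 0.92 (SE 0.25) in wt/flox livers, 1.89-fold higher. Ribosomal RNA was depleted before sequencing, so the reads of Rn45s are what the depletion left, and the part of the depletion in these values was not tested.

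Read against all genes, separation from wt/wt was common. In flox/flox against wt/wt livers 23.0% of the 14728 tested genes were higher without overlap, as Rn45s was, beside the 22.0% that were lower, as Rpph1, Rmrp and Terc were. Genes called by edgeR in that contrast made up 14.7% lower and 15.1% higher. In wt/flox against wt/wt livers 25.8% were higher without overlap, beside the 29.3% lower, and 5.89% were called lower and 6.58% higher, which is 868 lower and 969 higher genes. With upper-quartile scaling that last split was 1305 lower and 835 higher. The median log2 fold change over all tested genes was 0.04 in flox/flox against wt/flox, -0.06 in wt/flox against wt/wt and 0.02 in flox/flox against wt/wt livers.

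**Figure D2:**
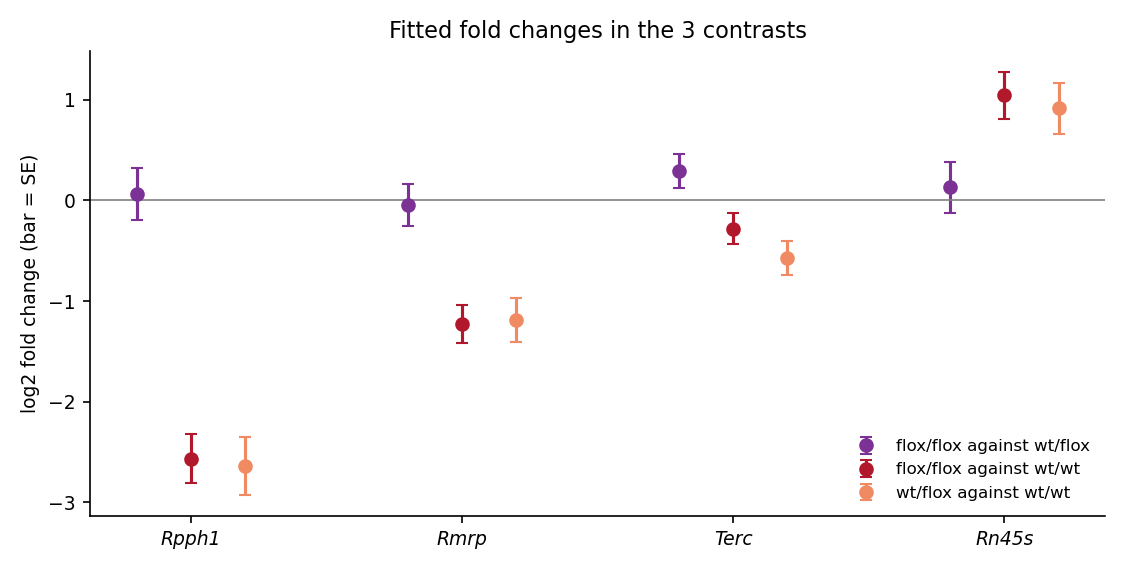
Fitted log2 fold changes (vertical axis, bars are SE) of Rpph1, Rmrp, Terc and Rn45s in the 3 contrasts, each coloured as in the legend. Values of flox/flox against wt/flox lie between -0.04 and 0.30, while both contrasts with wt/wt place Rpph1 near -2.6.

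The plot of fitted fold changes sets the contrasts side by side. Leaving out the flox/flox libraries of contradicted sex, the log2 fold change against wt/wt was -2.18 for Rpph1, -1.06 for Rmrp, -0.23 for Terc and 0.91 for Rn45s. Without them the flox/flox to wt/flox contrast, which then held 1 flox/flox library, gave 0.43 for Rpph1 (adjusted p = 0.388, edgeR), 0.10 for Rmrp, 0.32 for Terc and -0.04 for Rn45s.

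Levels of different genes were compared per kilobase of their RefSeq lengths of 325 bases for Rpph1, 275 for Rmrp and 397 for Terc. Rpph1 averaged 1179 ± 326 CPM per kilobase over 3 flox/flox, 1125 ± 126 over 2 wt/flox and 7000 ± 1297 over 3 wt/wt livers, with errors as SD. Rmrp had 1208 ± 140 CPM per kilobase in flox/flox, 1246 ± 46.7 in wt/flox and 2836 ± 628 in wt/wt livers. Terc had 14.2 ± 1.10 CPM per kilobase in flox/flox, 11.6 ± 0.814 in wt/flox and 17.3 ± 2.56 in wt/wt livers. In order of level per length Rpph1 stood above Rmrp in wt/wt livers, whereas in flox/flox and wt/flox livers they lay within their spread, and Terc was lowest in every group.

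Ratios of read counts within a library do not depend on its scaling. The ratio of Rpph1 to Rmrp reads was 1.02, 1.05 and 1.35 in flox/flox libraries, 1.12 and 1.01 in wt/flox libraries, and 3.10, 2.82 and 2.90 in wt/wt libraries. The wt/wt ratios lay apart from the other 5, which overlapped. The ratio of Rpph1 to Terc reads was 51.1, 66.6 and 85.8 in flox/flox libraries, 81.7 and 77.0 in wt/flox libraries, and 302.8, 361.4 and 328.8 in wt/wt libraries. The ratio of Rmrp to Terc reads was 50.1, 63.2 and 63.7 in flox/flox libraries, 72.8 and 76.3 in wt/flox libraries, and 97.8, 128.3 and 113.5 in wt/wt libraries. All 3 ratios were lower in libraries with a floxed allele, and flox/flox was below wt/flox without overlap in the ratio of Rmrp to Terc only.

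**Figure D3:**
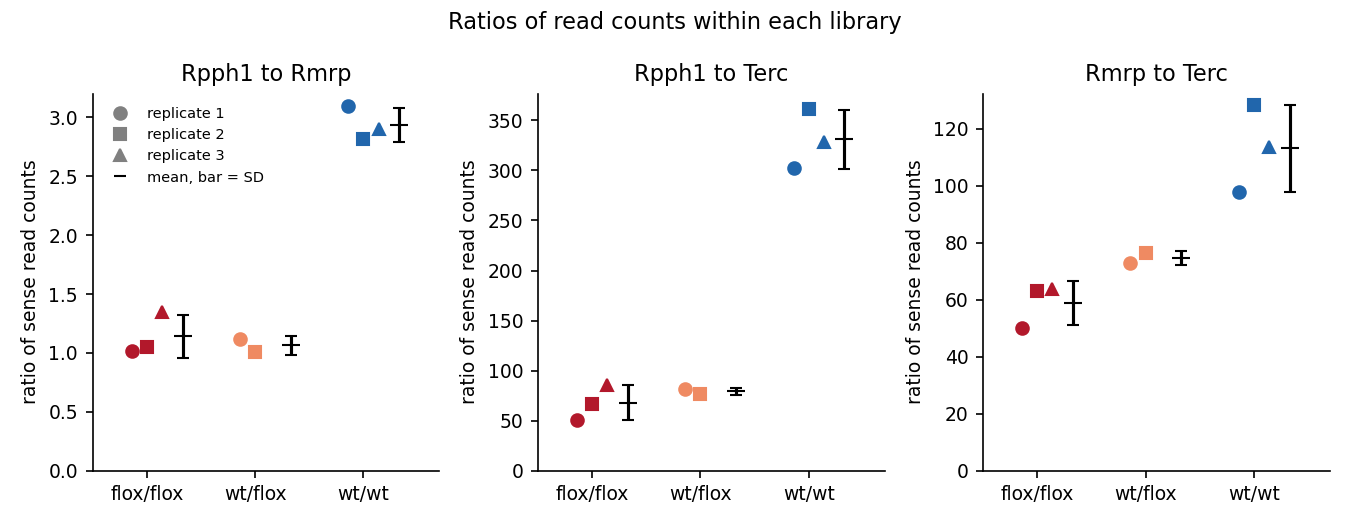
Ratio of sense read counts (vertical axes from 0) for the pairs Rpph1 to Rmrp, Rpph1 to Terc and Rmrp to Terc in flox/flox, wt/flox and wt/wt libraries, with symbols for libraries and bars for the mean with its SD. The ratio of Rpph1 to Rmrp is between 1.01 and 1.35 with a floxed allele and between 2.82 and 3.10 in wt/wt.

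Reads on the opposite strand were also counted at the same loci, and their shares are shown in the plot of antisense shares. For Rpph1 they made up 9.42% to 10.9% of reads on both strands in flox/flox, 8.83% to 9.86% in wt/flox and 10.5% to 11.1% in wt/wt libraries. For Rmrp the share was 13.3% to 13.9% in flox/flox, 10.9% to 12.2% in wt/flox and 13.8% to 14.4% in wt/wt libraries. For Terc it was 11.5% to 13.8% in flox/flox, 13.2% to 13.6% in wt/flox and 11.5% to 16.3% in wt/wt libraries. For Rn45s it was 12.8% to 13.9% in flox/flox, 12.2% to 13.2% in wt/flox and 12.0% to 12.4% in wt/wt libraries. Each of the 4 RNAs had a larger opposite-strand share than all genes together, a pool weighted by reads, which had 6.43% to 7.78% over the libraries. A large share was not particular to them, as the 5 genes most like Rpph1, named below, show in wt/wt replicate 1. Bad had 285 antisense beside 841 sense reads, Anapc11 136 beside 932 and Mrps15 131 beside 869. Tpm3 had 339 beside 5002 and Ptpn6 100 beside 1302, close to the pooled share.

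**Figure D4:**
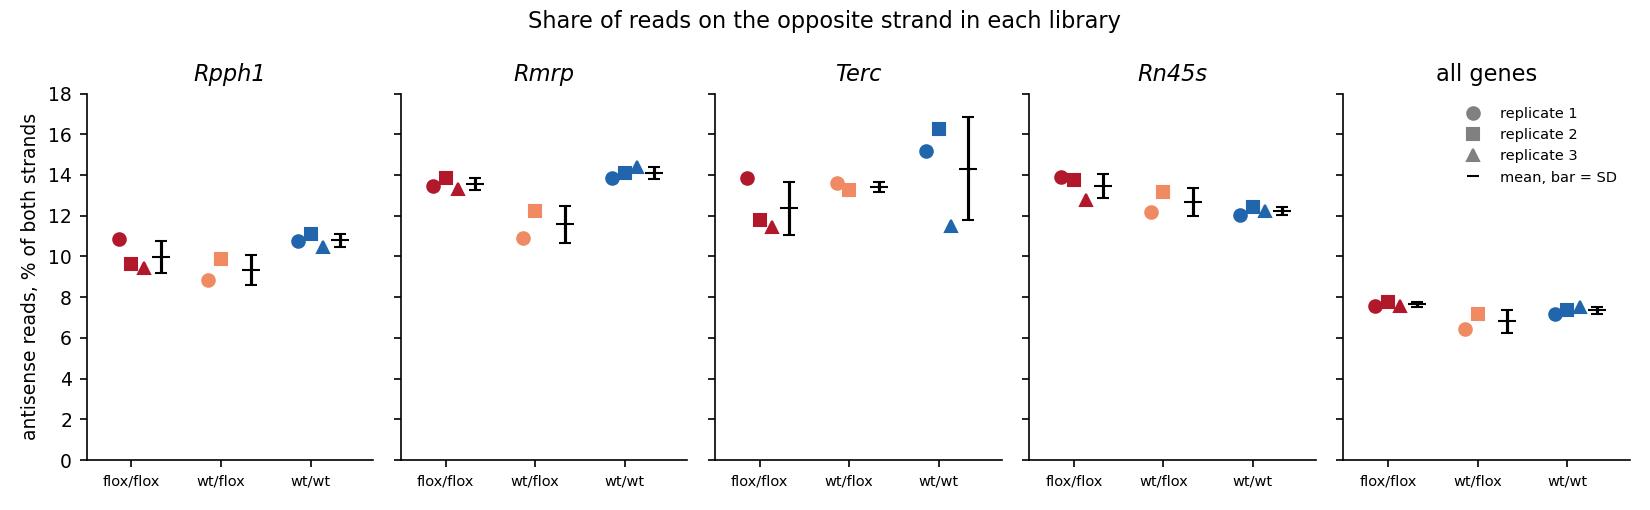
Reads on the opposite strand in percent of reads on both strands (vertical axis from 0) for Rpph1, Rmrp, Terc, Rn45s and all genes in flox/flox, wt/flox and wt/wt libraries, with symbols for libraries and bars for the mean with its SD. All genes together, a pool weighted by reads, stay between 6.43% and 7.78%, below each of the 4 RNAs.

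The neighbouring genes were measured in the same libraries. Parp2, whose GENCODE start lies 73 bases from the 5′ end of Rpph1 on the other strand, had 6.74, 6.51 and 7.89 CPM in flox/flox livers, 3.83 and 5.10 CPM in wt/flox livers, and 7.68, 6.02 and 7.19 CPM in wt/wt livers. It was low in wt/flox livers alone, with flox/flox and wt/wt overlapping. Its log2 fold change was 0.66 in flox/flox against wt/flox livers (SE 0.19, adjusted p = 0.558, edgeR), -0.64 in wt/flox against wt/wt livers (adjusted p = 0.0620) and 0.02 in flox/flox against wt/wt livers (adjusted p = 0.944). Ccnb1ip1, a meiotic E3 ligase gene, has a model that overlaps 284 bases of Rpph1 on the same strand and had 0 or 1 read per library. Reads that lie in both models may have been counted for neither gene. The counts of Ccnb1ip1 and Rpph1 may therefore lack reads. Ccdc107 had 15.6 to 20.3 CPM in flox/flox livers, 17.1 and 18.1 CPM in wt/flox livers, and 19.6 to 20.4 CPM in wt/wt livers, and passed the test in no contrast, with an adjusted p by edgeR of 0.913 in flox/flox against wt/flox, 0.351 in wt/flox against wt/wt and 0.372 in flox/flox against wt/wt livers. Near Rn7sk, the noncoding gene C920006O11Rik had 1.77, 1.99 and 3.13 CPM in flox/flox livers, 2.45 and 1.89 CPM in wt/flox livers, and 2.30, 1.38 and 1.25 CPM in wt/wt livers. These overlapped between all groups, and the adjusted p by edgeR was 0.940 in flox/flox against wt/flox, 0.475 in wt/flox against wt/wt and 0.296 in flox/flox against wt/wt livers. GENCODE starts Ccdc107 inside Rmrp, while RefSeq starts it beyond the 5′ end of Rmrp. The RNase P RNA-like genes Rprl1, Rprl2 and Rprl3 had 0, 2 and 4 reads over all 8 libraries. The files tally alignments to several places apart, so reads shared by Rpph1 and such copies would not be in these counts.

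The proteins that bind these RNAs, and the polymerases that make them, were counted by list. Over the 7 lists, 0 of 72 tested genes were called in flox/flox against wt/flox livers by edgeR, DESeq2 or limma-voom, with 10 at an unadjusted p under 0.05 by edgeR. Differences from wt/wt, described next, carry the batch mark as well as the genotype. In flox/flox against wt/wt livers edgeR called 12 of the 72 higher (16.7%, beside 15.1% of all tested genes) and 22 lower (30.6%, beside 14.7%). In wt/flox against wt/wt livers it called 4 higher (5.56%, beside 6.58% of all tested genes) and 2 lower (2.78%, beside 5.89%). DESeq2 called 14 of the 72 in that contrast, beside 3296 of all 14728 tested genes. The part of transcript length in the list counts was not tested.

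Of 9 tested proteins of RNase P and RNase MRP, 4 fell and 1 rose in flox/flox against wt/wt livers, with a list median log2 fold change of -0.59 beside 0.02 over all genes. Rpp25l, a paralog of the RNA-binding subunit Rpp25, averaged 4.16 ± 0.589 CPM in flox/flox and 9.05 ± 0.838 CPM in wt/wt livers (SD, n = 3 each) and was 2.18-fold lower (adjusted p = 0.00260, edgeR). The subunit genes Rpp21, 1.82-fold lower (adjusted p = 0.0117), and Pop5, 1.51-fold lower (adjusted p = 0.0167), also fell, as did Pop7 with a log2 fold change of -1.02 (adjusted p = 0.0179). Pop1, the large scaffold subunit, averaged 13.6 ± 3.34 CPM in flox/flox and 7.57 ± 0.600 CPM in wt/wt livers and was 1.79-fold higher (adjusted p = 0.0124). Of this list edgeR called 1 gene, Rpp25l, lower in wt/flox against wt/wt livers, and DESeq2 called 2. Without wt/wt replicate 2, 1 gene of the list was called lower and 0 higher in flox/flox against wt/wt livers, and without both libraries of contradicted sex 3 lower and 0 higher.

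Of 8 tested genes of telomerase and the maturation of its RNA, 4 fell and 1 rose in flox/flox against wt/wt livers, with a median log2 fold change of -0.26. Those that fell encode the H/ACA proteins that bind Terc and the small RNAs that guide pseudouridylation. Nhp2 averaged 4.36 ± 1.05 CPM in flox/flox and 11.3 ± 1.87 CPM in wt/wt livers (SD, n = 3 each), 2.60-fold lower (adjusted p = 0.00411, edgeR). Nop10 was 2.19-fold lower (adjusted p = 0.00418), Gar1 1.96-fold lower (adjusted p = 0.0311) and Dkc1 1.34-fold lower (adjusted p = 0.0371). Tert, the reverse transcriptase of telomerase, rose with a log2 fold change of 1.16 (adjusted p = 0.0469). In wt/flox against wt/wt livers edgeR called 0 of the 8 (4 at an unadjusted p under 0.05) and DESeq2 2. The call of Tert was lost with any of the wt/wt or wt/flox libraries, or flox/flox replicate 2 or 3, left out. The genes called lower numbered 2 with any of the wt/wt libraries, flox/flox replicate 2, flox/flox replicate 3 or both libraries of contradicted sex left out.

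Of the 3 tested proteins of the Y RNAs and of La, 2 fell in flox/flox against wt/wt livers. Ssb, the La protein that binds the ends of new RNA polymerase III transcripts, averaged 20.4 ± 2.82 CPM in flox/flox and 30.5 ± 0.345 CPM in wt/wt livers (SD, n = 3 each), 1.50-fold lower (adjusted p = 0.00997, edgeR). Puf60, which binds Y RNA particles, was 1.39-fold lower (adjusted p = 0.0400). Leaving out any single library other than flox/flox replicate 1 left 1 of the 3 called. In wt/flox against wt/wt livers edgeR and DESeq2 called 0, with 1 at an unadjusted p under 0.05 by edgeR.

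Of 7 tested genes of the particle of Rn7sk and of its target kinase P-TEFb, 2 rose and 2 fell in flox/flox against wt/wt livers. With either labelled sex or sex by transcripts as a term, 2 rose and 1 fell. The cyclins of the kinase rose, Ccnt2 to 46.0 ± 8.08 CPM in flox/flox against 23.9 ± 3.06 CPM in wt/wt livers (SD, n = 3 each; 1.93-fold, adjusted p = 0.00498, edgeR) and Ccnt1 1.67-fold (adjusted p = 0.0103). Larp7, which stabilises the RNA, was 1.46-fold lower (adjusted p = 0.0189), and Hexim2, which inhibits the kinase, was 1.92-fold lower (adjusted p = 0.0357). With edgeR 1 gene of the list, Ccnt2, was called in wt/flox against wt/wt livers, higher, and with DESeq2 2 were. In flox/flox against wt/wt livers 0 were called lower with wt/wt replicate 1 or 2 left out, and 1 with flox/flox replicate 3 or either wt/flox library left out. Without both libraries of contradicted sex 1 rose and 1 fell.

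RNA polymerase III makes Rpph1 and Rmrp. Of 14 tested genes of its subunits and of its repressor Maf1, 1 rose and 4 fell in flox/flox against wt/wt livers. Polr3a, the largest subunit, averaged 31.9 ± 2.56 CPM in flox/flox and 17.6 ± 1.18 CPM in wt/wt livers (SD, n = 3 each), 1.81-fold higher (adjusted p = 0.00217, edgeR). The small subunit gene Polr3k averaged 8.04 ± 0.0957 CPM in flox/flox and 16.4 ± 3.51 CPM in wt/wt livers, 2.04-fold lower (adjusted p = 0.00510). Polr1d and Polr1c, shared with RNA polymerase I, were 1.59-fold (adjusted p = 0.0112) and 1.55-fold lower (adjusted p = 0.0116), and the subunit gene Polr3c fell by 0.36 on the log2 scale (adjusted p = 0.0285). Without both libraries of contradicted sex 2 genes of the list fell. Both edgeR and DESeq2 called 1 gene of the list in wt/flox against wt/wt livers, which with edgeR was Polr3a, higher.

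Of 18 tested genes of RNA polymerase III initiation factors, 6 rose and 4 fell in flox/flox against wt/wt livers, with a median log2 fold change of 0.29. With labelled sex as a term 5 rose and 3 fell, and with sex by transcripts 6 rose and 3 fell. The SNAPc complex binds promoters of the kind that Rpph1 and Rmrp have, and its subunit genes went both ways. Snapc3 averaged 16.1 ± 1.20 CPM in flox/flox and 7.21 ± 0.614 CPM in wt/wt livers (SD, n = 3 each), 2.24-fold higher (adjusted p = 0.00126, edgeR). Snapc5 averaged 3.41 ± 0.296 CPM in flox/flox and 7.65 ± 1.00 CPM in wt/wt livers, 2.24-fold lower (adjusted p = 0.00288). Of the TFIIIC genes, which act at tRNA genes, Gtf3c1 was 1.48-fold higher (adjusted p = 0.00827) and Gtf3c6 2.11-fold lower (adjusted p = 0.00803). Snapc3 and Gtf3c1 were called higher and Snapc5 lower by edgeR in wt/flox against wt/wt livers, where DESeq2 called 5. Without wt/wt replicate 2, 2 genes rose and 2 fell in flox/flox against wt/wt livers, and without both libraries of contradicted sex 3 rose and 2 fell.

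RNA polymerase I makes Rn45s. Of 13 tested genes of its subunits and factors, 1 rose and 2 fell in flox/flox against wt/wt livers. With either labelled sex or sex by transcripts as a term, 1 rose and 1 fell. In wt/flox against wt/wt livers edgeR called 0 (4 at an unadjusted p under 0.05) and DESeq2 2. Taf1a, of the selectivity factor at the ribosomal DNA promoter, averaged 6.97 ± 0.500 CPM in flox/flox and 3.55 ± 0.388 CPM in wt/wt livers (SD, n = 3 each), 1.96-fold higher (adjusted p = 0.00356, edgeR). The subunit gene Znrd1 was 1.74-fold lower (adjusted p = 0.0178), and Ubtf, an activator of ribosomal DNA, was 1.30-fold lower (adjusted p = 0.0295). No gene of the list was called lower with wt/wt replicate 2 left out, and 1 was with wt/wt replicate 1, flox/flox replicate 2, flox/flox replicate 3 or both libraries of contradicted sex left out.

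**Figure D5:**
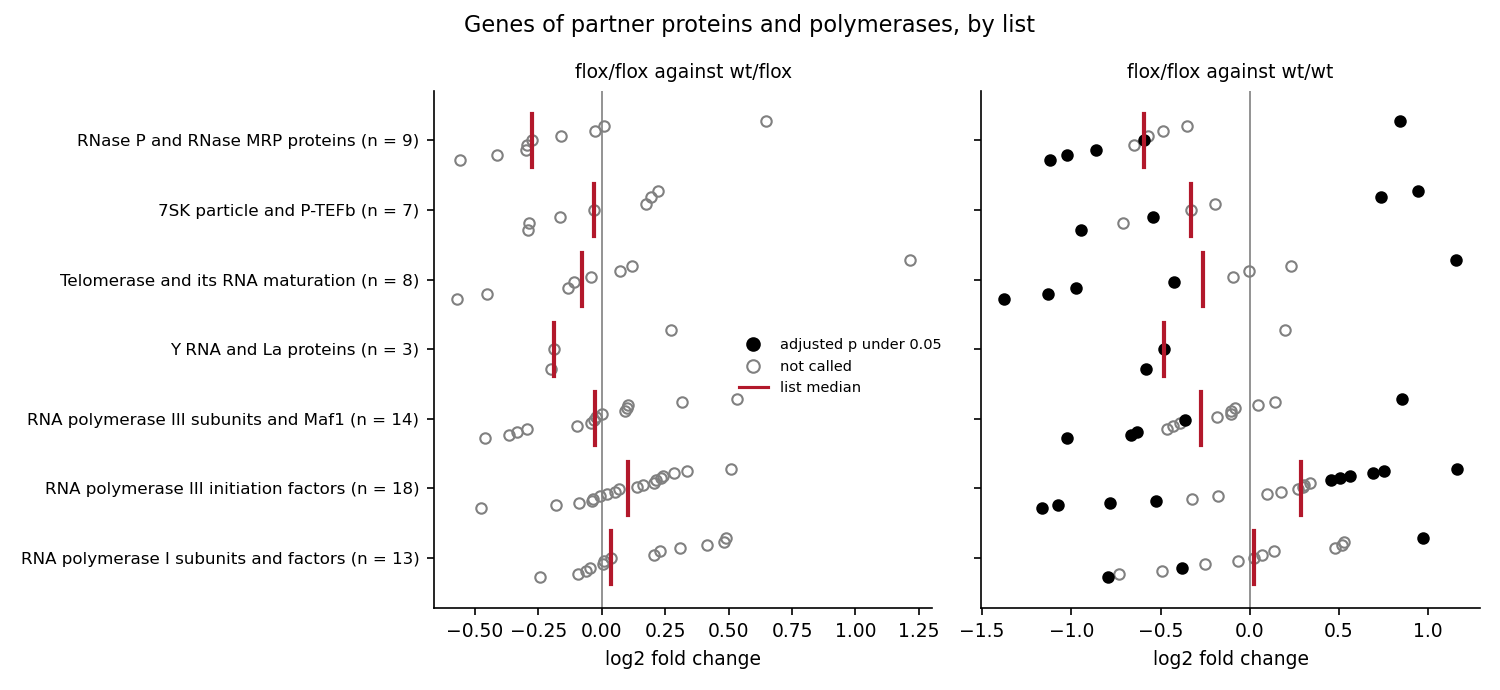
Log2 fold change (horizontal axes, scaled separately) of each tested gene of 7 lists in flox/flox against wt/flox (left) and flox/flox against wt/wt (right). Filled points have an adjusted p under 0.05 by edgeR and red lines are list medians, with no filled point on the left and both directions on the right in 6 of the 7 lists.

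The plot of partner lists shows that lists with called genes held both directions, apart from the 3 proteins of the Y RNAs and La. Among other structured RNAs, 7 of 13 with rows were tested, and 1 was called in flox/flox against wt/wt livers, where 15.1% of all tested genes were called higher and 14.7% lower. Rnu73b, a small nucleolar RNA, had 69, 83 and 47 reads in flox/flox libraries, 48 and 37 reads in wt/flox libraries, and 25, 16 and 23 reads in wt/wt libraries. It was 3.10-fold higher in flox/flox than in wt/wt livers (adjusted p = 0.0231, edgeR), with no overlap, as were 23.0% of all tested genes. Rnu12, of the minor spliceosome, had 25, 33 and 9 reads in flox/flox libraries, 35 and 11 reads in wt/flox libraries, and 47, 76 and 94 reads in wt/wt libraries, with a log2 fold change of -1.63 in flox/flox against wt/wt livers (adjusted p = 0.0783, edgeR). The others had log2 fold changes in that contrast of -1.13 for the vault RNA Vaultrc5, -0.82 for Rnu11, also of the minor spliceosome, -1.07 for Rnu3a, -0.81 for Snord118 and 0.94 for Bc1, and none passed the test.

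The 61 tested genes with at least 200 and under 500 exon bases, the class of Rpph1, Rmrp and Terc, had a median log2 fold change of -0.25 in flox/flox against wt/wt, -0.40 in wt/flox against wt/wt and 0.05 in flox/flox against wt/flox livers. For the 239 genes under 200 bases the medians were 1.15, 0.87 and 0.19 in the same order of contrasts. For the 376 genes with at least 500 and under 1000 bases they were -0.49, -0.52 and -0.04, the lowest of the classes in both contrasts with wt/wt. For the 13731 genes of 1000 bases or more they were 0.02, -0.06 and 0.03. The part of transcript length in the levels of Rpph1 and Rmrp was not tested.

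Summed levels of cell type markers differed between the same libraries, and a sum weighs its most abundant genes most. The summed level of 6 hepatocyte markers was 141046 to 217768 CPM in flox/flox, 133310 to 145038 CPM in wt/flox and 88295 to 103793 CPM in wt/wt libraries. Endothelial markers summed to 54.2 to 115.7 CPM in flox/flox, 63.9 to 70.3 CPM in wt/flox and 125.4 to 195.2 CPM in wt/wt libraries. Cholangiocyte markers summed to 4.16 to 6.93 CPM in flox/flox, 4.07 to 10.8 CPM in wt/flox and 8.48 to 22.2 CPM in wt/wt libraries. Kupffer cell markers summed to 22.7 to 84.3 CPM in flox/flox, 22.3 to 23.6 CPM in wt/flox and 42.4 to 189.8 CPM in wt/wt libraries. The hepatocyte sum was thus higher and the endothelial sum lower in all 5 libraries with a floxed allele than in wt/wt. The cholangiocyte sum lay below wt/wt without overlap in flox/flox only and the Kupffer cell sum in wt/flox only. Neutrophil markers summed to 0.125 to 0.326 CPM in flox/flox, 0.199 to 0.256 CPM in wt/flox and 0.313 to 7.03 CPM in wt/wt libraries. B cell markers summed to 0.0777 to 0.182 CPM in flox/flox, 0.0117 to 0.128 CPM in wt/flox and 0.173 to 0.977 CPM in wt/wt libraries. T and NK cell markers summed to 0.134 to 0.546 CPM in flox/flox, 0.0819 to 0.170 CPM in wt/flox and 0.112 to 1.12 CPM in wt/wt libraries. Stellate cell markers summed to 6.63 to 22.4 CPM in flox/flox, 9.00 to 10.1 CPM in wt/flox and 9.77 to 25.0 CPM in wt/wt libraries. Erythroid markers summed to 5.59 to 48.5 CPM in flox/flox, 80.6 to 98.2 CPM in wt/flox and 7.23 to 102.6 CPM in wt/wt libraries, and of them Hbb-bs, Hbb-bt and Hba-a1 were at 0 reads in every library. The part of cell makeup, of the batch mark and of the share of reads aligned to several places in the levels of Rpph1, Rmrp and Rn45s was not tested.

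Among 8641 genes with a mean of at least 5 CPM, predicted genes aside, the pattern of Tpm3, a tropomyosin gene, was most like that of Rpph1, with Pearson's r of 0.995 between log2 CPM over the 8 libraries. Tpm3 had 26.8, 28.4 and 30.8 CPM in flox/flox livers, 30.4 and 29.8 CPM in wt/flox livers, and 50.8, 54.5 and 55.7 CPM in wt/wt livers. Anapc11, a subunit of the anaphase-promoting complex, followed with 0.991, then Bad, an apoptosis regulator, and Ptpn6, a phosphatase, with 0.988 each, and Mrps15, of the mitochondrial ribosome, with 0.986. Rmrp stood at number 10 with r of 0.983, Terc at number 1372 with 0.790 and Rn45s at number 7757 with -0.897. These values describe libraries that share the split between wt/wt and the rest, and carry no test.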

How the data were processed

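Bulk RNA sequencing of 8 mouse liver cell preparations was analysed. The file headers name the deposited values as counts of reads per gene on the sense and on the antisense strand. Genome build GRCm38 (mm10) and DESeq2 are named in the submitters' processing notes. Which aligner, counter and annotation made the counts is not given in the sources used here. The 5 rows that name no gene were left out.

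Sense counts of all 8 libraries entered 1 fit under R 4.3.3 with edgeR 4.0.16 and its quasi-likelihood test, with TMM factors, the filterByExpr filter, genotype as the term, and Benjamini-Hochberg adjustment at 0.05, two-sided. A sex term was not used because the labels go against the transcripts in 2 libraries. The SE is the fold change divided by the square root of F. The code was tested on simulated data. P-values measure the spread between these samples, and counting limits cover counting error only. Sequences and positions come from GENCODE M21 on GRCm38 and RefSeq GRCm38.p6.

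The members and the lists were chosen with earlier results of these data known. Named are all members, the neighbours within 2000 bases with reads or an overlap, and Adar and Ifih1. From each protein list the rule takes at most 4 called genes of smallest adjusted p in flox/flox against wt/wt, and all other structured RNAs that pass the filter. It adds the 5 genes most like Rpph1. Rprl1, Rprl2, Rprl3, Pop7, Tert and Polr3c were named after their values were seen. Alternatives were RLE and upper-quartile factors, totals without Rn45s, no filter, DESeq2 1.42.0, limma-voom (limma 3.58.1), sex terms, a replicate block, fits of single pairs of groups, leaving out each library, and, for levels, both strands or no TMM factor. The fit without the libraries of contradicted sex, and the list counts without them or with a sex term, were chosen after seeing the data.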

Additional observations from a re-analysis of the deposited data

Results flagged for a closer look

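Antisense reads of Rn45s, which the comparisons of sense reads do not use, were higher in every library with a floxed allele than in wt/wt, while flox/flox and wt/flox overlapped. They reached at least 6470 CPM in flox/flox libraries (highest 8221) and at least 5593 CPM in wt/flox libraries (highest 7369), against 2488 to 4050 CPM in wt/wt libraries. Of all tested genes 21.5% had higher antisense CPM without overlap in flox/flox than in wt/wt libraries, and 17.9% in wt/flox than in wt/wt libraries. The antisense share of Rn45s reads was 12.0% to 13.9% throughout, so these values follow the sense reads and are no independent measure. The wt/wt libraries were taken as the controls, and the batch mark and the genotype cannot be told apart here. Groups of 3 or fewer libraries were not searched for outlying samples.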

How the results depend on the processing

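In flox/flox against wt/flox livers, DESeq2 called 75 genes, against 0 by edgeR. In wt/flox against wt/wt livers, DESeq2 called 3296 genes, against 1837 by edgeR, and leaving out each library gave 0 to 2525. There 0 genes were called with wt/flox replicate 1 left out (3256 at an unadjusted p under 0.05) or wt/flox replicate 2 (2985). With a wt/wt library left out the count was 393 for replicate 1, 38 for replicate 2 and 1001 for replicate 3. In flox/flox against wt/wt livers, 2915 genes were called without both libraries of contradicted sex, of which 2396 were among the 4400, and leaving out each library gave 2195 to 4722, with 2195 when wt/wt replicate 2 and 2807 when wt/wt replicate 1 was left out. The causes were not tested. Where 1 library was left in a group, it is assumed to vary like the other groups.

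Over all alternative fits, each with scaling factors, the log2 fold change of Rpph1 ranged from -2.82 to -2.18 in flox/flox against wt/wt livers. It ranged from -2.78 to -2.46 in wt/flox against wt/wt and from -0.21 to 0.43 in flox/flox against wt/flox livers. Rmrp ranged from -1.41 to -1.06, Terc from -0.37 to -0.16 and Rn45s from 0.89 to 1.23 in flox/flox against wt/wt livers. The TMM factors were 1.14 to 1.19 in wt/wt libraries and 0.855 to 0.996 in those with a floxed allele. Scaled to library totals alone, Rpph1 had 278.1 to 501.4 CPM in flox/flox and 2142 to 3015 CPM in wt/wt livers. Terc had 4.40 to 5.84 CPM and 7.08 to 9.17 CPM in the same order. Mean Rmrp was then 307.7 and 901.4 CPM and mean Rn45s 44697 and 27228 CPM. The gap was wider than with TMM for Rpph1, Rmrp and Terc and narrower for Rn45s.

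The replicate numbers follow age but name no shared litter, batch or day, and were not taken as pairs: deviations of same-numbered libraries correlated between 0.012 and 0.451, not all above 0.1, and 4 of 8 libraries correlated best with their own number. With a replicate block, 0, 1439 and 4794 genes were called in flox/flox against wt/flox, wt/flox against wt/wt and flox/flox against wt/wt livers, and Rpph1 had log2 fold changes of -0.13, -2.46 and -2.59.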
